A study of Homo sapiens with 8 samples.

Results

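The TERT transcript was described through the peaks that an antibody against the RNA-binding protein RBPMS left in 4 eCLIP libraries of human embryonic stem cells. Its members are the deposited peaks on the minus strand that share at least 1 base with chromosome 5, 1253000 to 1295500 (build hg19), the stretch taken here as the TERT gene. This gave 77 of the 194003 peaks of the whole series. Within it, 41 peaks lie in a run at 1289341 to 1291667 and 36 in the rest of the stretch. The run was chosen because its peaks stood out in these same lists, and both of its borders coincide with peaks of library 1, so the folds, p-values and counts below are a description and carry no test.

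TERT encodes the catalytic subunit of telomerase, the reverse transcriptase that copies the template in the telomerase RNA TERC onto chromosome ends. It is expressed in pluripotent stem cells, germ cells and most cancers and is low or silent in most differentiated cells, and its pre-mRNA is known to be spliced in several ways. RBPMS contains a single RNA recognition motif, binds RNA as a dimer and prefers paired CAC motifs. In eCLIP, UV light links proteins to the RNA they touch, the protein is pulled down, and the RNA left attached is sequenced beside input RNA that was not pulled down.

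All samples were the wild-type line HUES6, grown in FTDA medium and labelled as control treatment, with 4 eCLIP libraries made with the RBPMS-specific antibody and 4 input libraries made without antibody. Dishes held about 20M cells, and the UV energy was 400 mJ/cm2. The 4 inputs enter only through the authors' value per peak, a log2 fold of immunoprecipitation over input, and its −log10 p. An immunoprecipitation with another antibody or from cells without RBPMS was not analysed here. The log2 fold is relative to input and therefore measures neither the level of TERT RNA nor the identity of the cells.

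The lists held between 20254 and 118375 peaks each, the longest being that of library 2. The immunoprecipitation reads of libraries 3 and 4 agreed within sampling noise over 315 peaks that overlapped by at least 80% of the longer and held at least 40 such reads in both together (chi-square test, p = 0.693), where the statistic divided by its degrees of freedom was 0.96, against 3.57 to 4.96 in the other 5 pairs. These 2 libraries were therefore counted as 1 sample, and a mean ± SD is over n = 3 samples: library 1, library 2 and the mean of libraries 3 and 4. Nothing in the labels says that the libraries came from separate cultures, so this spread may be technical.

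Peaks along TERT were few over most of its length and dense in the run. Library 1 listed 19 peaks in the stretch, 8 of them in the run. Library 2 listed 27, with 12 in the run. Library 3 listed 16, with 11 in the run, and library 4 listed 15, with 10 in the run. The run makes up 5.48% of the stretch, and it held between 42.1% and 68.8% of a library's peaks there.

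**Figure D1:**
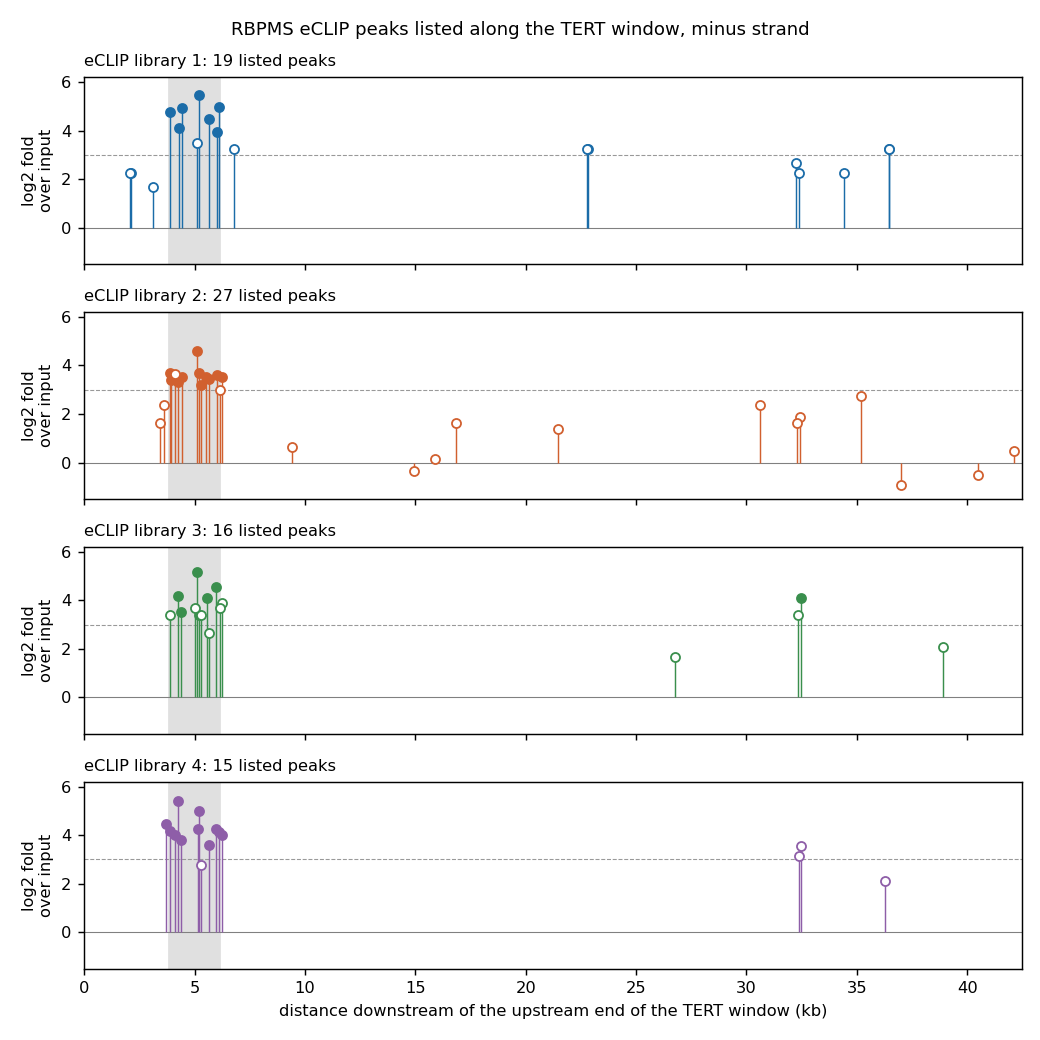
Log2 fold over input of each listed peak (y axis) against the distance of its centre from the upstream end of the TERT window in kb (x axis), with 1 panel per eCLIP library and the run shaded grey. Filled points pass log2 of at least 3 (dashed line) and −log10 p of at least 3. The filled points gather in and beside the shaded run, and the only other one is the library 3 peak near 32.5 kb.

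The antisense strand carried nothing in these lists. No library listed a plus-strand peak in the stretch, and none listed one in the 50 kb on either side. On the minus strand the 50 kb downstream of the stretch held no peak. The 50 kb upstream held 21, of which 18 were in library 2, and none passed the thresholds used below. In the RefSeq gene order of GRCh38 the nearest protein-coding genes with an established symbol are SLC6A18 on the downstream side and CLPTM1L on the upstream side. The most upstream 2052 bases of the stretch held no listed peak.

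A peak was called enriched at a log2 fold of at least 3, which is 8-fold over input, and a −log10 p of at least 3. Over all listed peaks of the series this rule called 15.9%, 5.38%, 12.6% and 12.7% in libraries 1 to 4. In the TERT run it called 7 of 8, 10 of 12, 6 of 11 and 9 of 10 peaks in libraries 1 to 4. In the rest of TERT it called 0 of 11, 1 of 15, 1 of 5 and 2 of 5. Over the 4 libraries this made 32 of 41 peaks in the run and 4 of 36 outside it, and since the run was chosen on these values nothing is read from the contrast with the series.

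The reads behind each peak were worked back from the deposited fold and p, and they show how thin the counts are. All 41 peaks of the run, and the 33 of the other 36 that stood above input, gave 1 pair of whole numbers each; the other 3, all in library 2, lay below input. Immunoprecipitation reads per peak in the run had medians of 14 (range 7 to 24), 25.5 (12 to 47), 9 (5 to 17) and 23 (11 to 29) in libraries 1 to 4. Input reads were at most 3 in 38 of the 41 peaks and 1 in 15 of them. An input of 0 cannot be told from an input of 1 here, so the fold of those 15 peaks depends on how the authors treated a 0.

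Summed over the run, library 1 had 116 immunoprecipitation reads over 17 input reads. Library 2 had 339 over 31, library 3 had 110 over 17, and library 4 had 208 over 18. Library 2 was the highest and libraries 1 and 3 the lowest. The libraries stood in the same order over well-matched peaks of the series. Library 2 had 2.92 times the reads of library 1 in the run and 3.05 times over such peaks. Library 3 had 0.95 times the reads of library 1 in the run and 0.94 times over such peaks. Library 4 had 1.79 times those of library 1 in the run and 1.42 times over such peaks. The ratios of run and series are not like for like. The run sums take every listed peak, including those at 5 sites that library 1 did not list, while the series peaks were matched between libraries. How near the ratios lie is therefore not read as a result. Reads that span neighbouring peaks may have been counted in both.

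**Figure D2:**
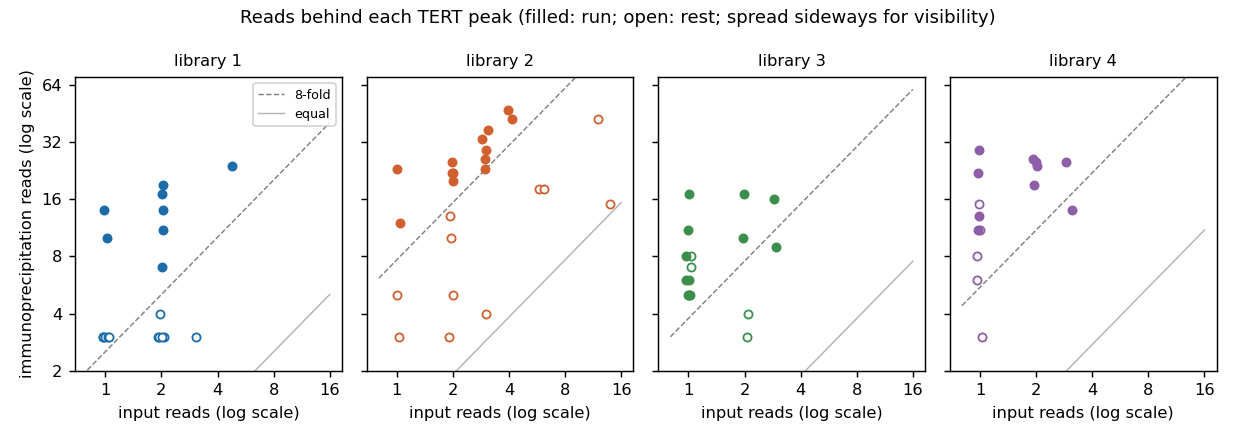
Immunoprecipitation reads (y axis) against input reads (x axis) behind each TERT peak with recovered reads, both on log scales, with 1 panel per eCLIP library. Filled points are peaks of the run and open points peaks of the rest; the dashed line marks 8-fold over input and the solid line equal density. The peaks of the run rest on 1 to 5 input reads, and those of the rest reach down to 3 immunoprecipitation reads.

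In the rest of TERT, 20 of the 33 peaks with known reads rested on at most 5 immunoprecipitation reads, against 2 of 41 in the run. In library 1 all 11 peaks outside the run had 3 or 4 reads. Library 1 needs 7 immunoprecipitation reads over 1 input read to pass both thresholds, library 2 needs 13, library 3 needs 8 and library 4 needs 10. The highest outside peaks of library 1, at a log2 fold of 3.25, had 3 reads over 1 and so could not be called.

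The median log2 fold of the run's peaks was 4.61, 3.52, 3.67 and 4.16 in libraries 1 to 4, a mean of 4.02 ± 0.55 (SD, n = 3). For all listed peaks of the series the medians were 3.25, 1.06, 2.67 and 2.13. In the rest of TERT the medians were 2.67, 1.65, 3.41 and 3.54, a mean of 2.60 ± 0.92 (SD, n = 3).

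The run stood above the rest of TERT in every library, but by unequal amounts. The difference of medians was 1.95 and 1.87 in libraries 1 and 2 but 0.26 and 0.61 in libraries 3 and 4, a mean of 1.42 ± 0.85 (SD, n = 3). In library 1 all 8 peaks of the run exceeded the highest peak outside it, at 3.25. In library 2, 5 of 12 did, and the groups overlapped through 1 outside peak that exceeded the lowest peak of the run. In libraries 3 and 4 the groups overlapped widely: 3 of 11 and 2 of 10 peaks of the run exceeded the highest outside peak, and 3 of 5 and 4 of 5 outside peaks exceeded the lowest of the run. Restricted to peaks that reach the p threshold, the difference was 0.83 in library 2, 0.044 in library 3 and -0.069 in library 4, from 2, 1 and 2 outside peaks. Library 1 had no such peak outside the run.

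**Figure D3:**
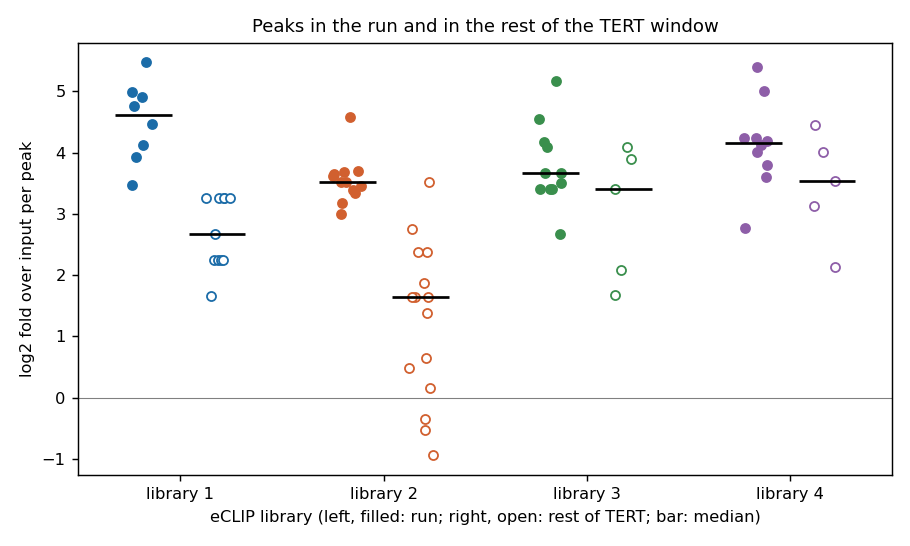
Log2 fold over input per peak (y axis) in each eCLIP library (x axis), with peaks of the run as filled points on the left, peaks of the rest of TERT as open points on the right, and black bars for the medians. The groups separate in library 1 and overlap in libraries 2, 3 and 4, and only library 2 has peaks below 0.

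Of the 4 enriched peaks outside the run, 3 lay beside it. A site at 1289232 to 1289291, just downstream of the window, was listed in libraries 2, 3 and 4 at log2 folds of 3.52, 3.89 and 4.002, between 50 and 61 bases from the border. It passed both thresholds in libraries 2 and 4, and in library 3 its −log10 p was 2.70 from 7 reads over 1. Library 1 did not list it. On the upstream side, 126 bases away, library 4 alone listed 1291793 to 1291835 at 4.45, from 15 reads over 1. Just inside the borders lay the peak at 1289342 to 1289403 of library 1, at 4.99, and that at 1291595 to 1291667 of the same library, at 4.75. The borders of the run thus coincide with peaks of library 1, and peaks of the other libraries at a like fold continue past them. Merged from enriched peaks only, these neighbours were enriched in 2 libraries downstream and 1 upstream. The runs of the series described below chain only regions enriched in at least 3. Without the peaks within 150 bases of the window the difference between run and rest was 1.64 ± 0.58 (SD, n = 3).

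Merging all listed peaks that share a base gave 40 sites along TERT, 12 in the run and 28 outside. Peaks that touch without sharing a base stay separate sites unless a peak of another library bridges them, and the same reads may lie behind both. Outside the run library 1 had such pairs within 1293394 to 1293448, 1272694 to 1272728 and 1259037 to 1259075, with equal reads in each pair. In the run the library 2 peak at 1291533 to 1291574 touches its upstream neighbour. The library 1 peaks at 1289342 to 1289403 and 1289404 to 1289539 also touch. Both are enriched, and peaks of other libraries join them into 1 site. In the run 7 sites were listed in all 4 libraries, 1 in 3, 2 in 2 and 2 in 1. Outside it 1 site was listed in all 4 libraries, 1 in 3, 1 in 2 and 25 in a single library. Of the run's 41 peaks, 39 shared a base with a peak of another library, and of the 36 outside, 11 did. For an ordered pair of libraries, the share of one library's run peaks met by the other ranged from 66.7% to 100%, with a median of 86.7%. Outside the run it ranged from 9.09% to 3 of 5 peaks, with a median of 19.1%. The same shares over all listed peaks of the series were not taken. Since the run was chosen on these lists, nothing is read from the contrast.

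Part of the run was covered in all 4 libraries, and 1385 of its bases lay under no peak in any. Of its 2327 bases, 280 (12.03%) lay under a peak in all 4 libraries, and 942 (40.5%) lay under a peak in at least 1. Of the 40174 other bases, 38 (0.095%) lay under a peak in all 4 and 1294 (3.22%) in at least 1. Shared coverage is built into the choice of the run on these lists, so nothing is read from this contrast. The same share over the series was not taken. Library 2, the longest list, covered 31.5% of the run, and libraries 1, 3 and 4 covered 23.0%, 23.5% and 28.2%.

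The run is not one continuous block. Its neighbouring sites were a median of 62 bases apart, and the widest interval, 541 bases between 1290498 and 1291040, held no listed peak in any library. This splits the run into an upstream group of 5 sites and a downstream group of 7. A further 242 bases without a peak separate the most downstream site from its neighbour. Of the 41 peaks, 37 were at most 100 bases wide, with extremes of 10 and 136 bases.

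The sites listed in all 4 libraries are given next in the direction of transcription, each by its highest peak in every library. The most upstream site, 1291575 to 1291667, had log2 folds of 4.75, 3.69, 3.41 and 4.19 in libraries 1 to 4, a mean of 4.08 ± 0.59 (SD, n = 3). Library 1 was highest and library 3, with 5 reads over 1, did not pass the p threshold.

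The next, 1291172 to 1291293, had 4.13, 3.33, 4.17 and 5.40, a mean of 4.08 ± 0.73 (SD, n = 3). Library 4 was the highest there, with 29 reads over 1 input read, and all 4 libraries passed. The neighbouring site at 1291040 to 1291128 had 4.91, 3.52, 3.50 and 3.79, a mean of 4.03 ± 0.77 (SD, n = 3), and also passed in all 4. At this site library 1 lay apart from the other 3, which were within 0.29 of each other.

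Past the empty interval, 1290339 to 1290411 had 3.47, 4.58, 5.17 and 4.24, a mean of 4.26 ± 0.68 (SD, n = 3). This was the only site of the run that library 1 listed lowest, from 7 reads over 2 and a −log10 p of 2.99, just under the threshold. The site at 1290255 to 1290320 had 5.47, 3.70, 3.41 and 5.002, with the highest mean of the run, 4.46 ± 0.91 (SD, n = 3), and passed in all 4.

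The site at 1289799 to 1289866 had 4.47, 3.45, 2.67 and 3.60, a mean of 3.69 ± 0.70 (SD, n = 3), the lowest of the 7. Library 3, at 9 reads over 3, did not reach either threshold there. The most downstream and widest site, 1289342 to 1289556, held 2 peaks in each library. Its highest peaks were 4.99, 3.62, 4.54 and 4.24, a mean of 4.33 ± 0.69 (SD, n = 3), and all 4 libraries passed.

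**Figure D4:**
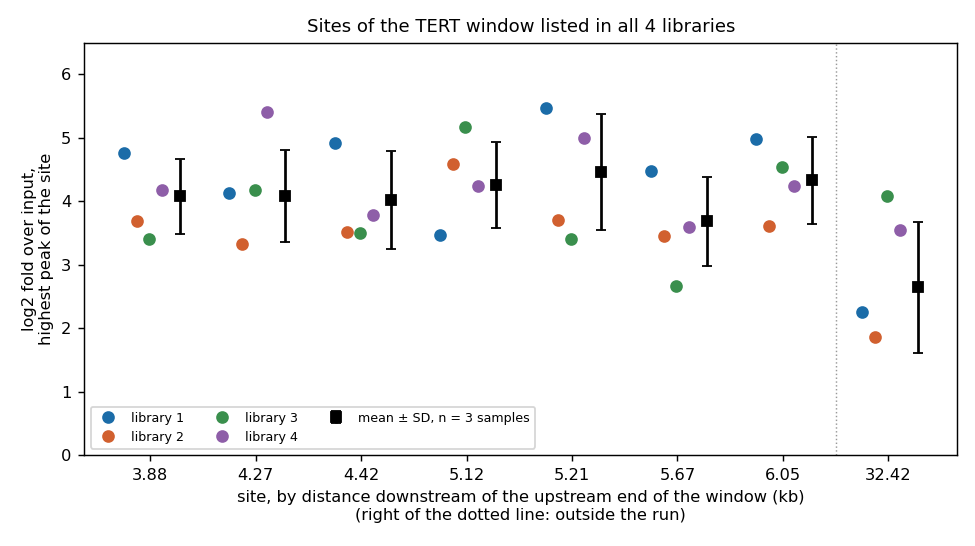
Log2 fold over input of the highest peak (y axis) at each TERT site listed in all 4 libraries (x axis, distance in kb from the upstream end of the window), with coloured points for libraries and black squares with bars for the mean ± SD over n = 3 samples. The 7 sites of the run have means from 3.69 to 4.46, and the site outside the run, at the right, has 2.64.

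The order of these 7 sites differed between libraries. The highest in library 1 was 1290255 to 1290320, in libraries 2 and 3 it was 1290339 to 1290411, and in library 4 it was 1291172 to 1291293. Their means spanned 0.77 on the log2 scale, and the SDs of the 7 sites lay between 0.59 and 0.91. These SDs are between libraries, and differences between libraries that the sites share enter them. They are therefore no measure for comparing sites. In library 1 the highest lower bound of an exact (Clopper-Pearson) 95% interval among the run's peaks was 2.86 and the lowest upper bound 5.68. The same pair was 2.16 and 5.38 for library 2, 2.50 and 5.19 for library 3, and 2.81 and 5.21 for library 4. The intervals of all the run's peaks in a library thus shared a common range. Site was not tested against site, and the libraries were not combined. These intervals cover counting error only, take the depth ratio as fixed and take the recovered input of 1 as 1.

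**Figure D5:**
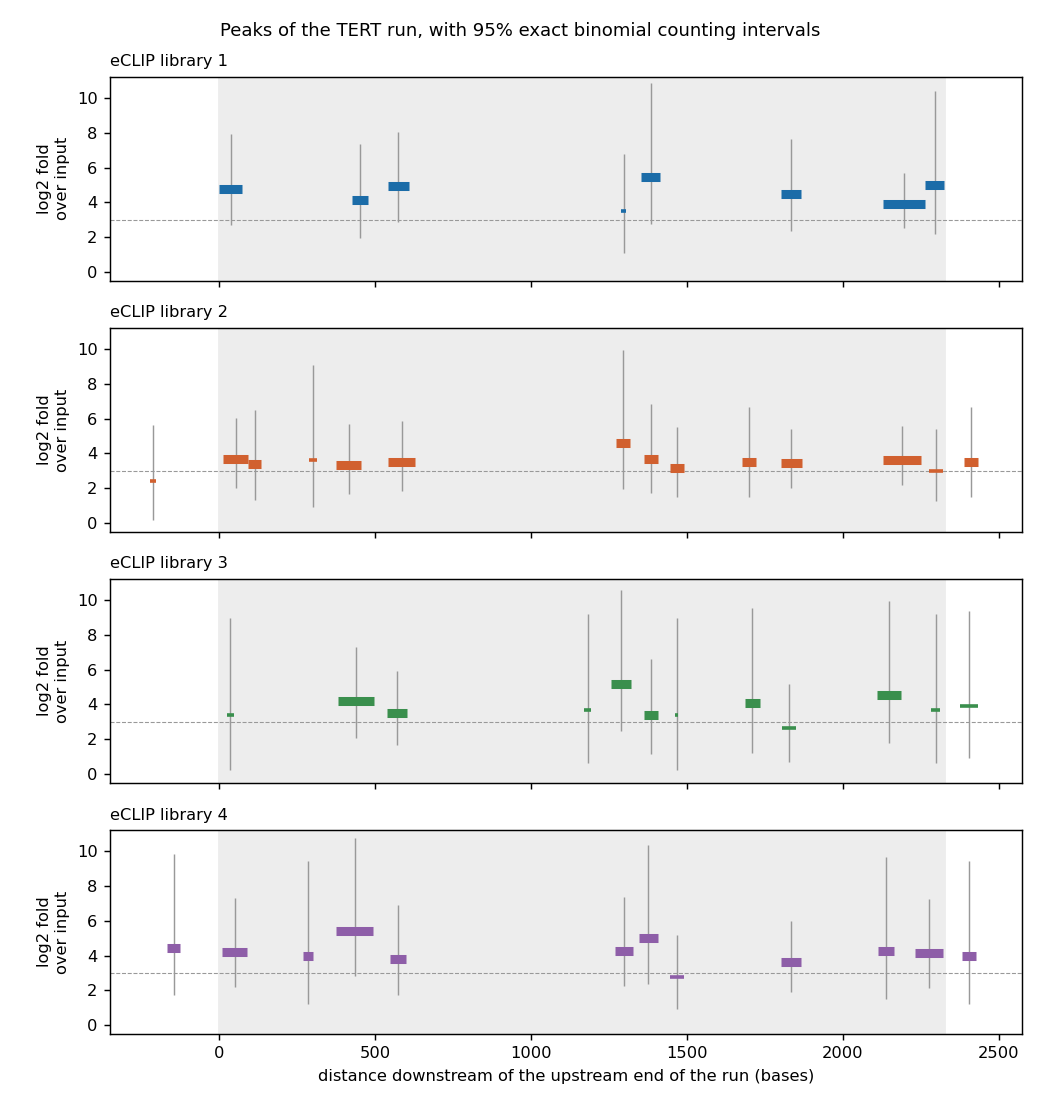
Log2 fold over input (y axis) of the peaks in and beside the run, drawn as bars at their true width against the distance in bases from the upstream end of the run (x axis), with 1 panel per eCLIP library. Thick bars pass both thresholds (dashed line at log2 of 3), grey vertical lines are exact 95% counting intervals, and the run is shaded. The vertical lines overlap within each panel, and the stretch of 541 bases near the middle is empty in all 4.

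All 41 intervals in the run had a lower bound above 0, and 34 had one above 1, that is above 2-fold. Outside the run 13 of 33 had a lower bound above 0 and 4 had one above 1. In library 1 none of 11 outside peaks had a lower bound above 0, against 6 of 12 in library 2, 3 of 5 in library 3 and 4 of 5 in library 4. Those 11 had at most 4 immunoprecipitation reads each, so their intervals are wide. The bounds come from the same reads as the folds and p of the chosen run, so nothing is read from the contrast. The share over all listed peaks of the series was not taken.

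The other 5 sites of the run were listed in fewer libraries. The site at 1290177 to 1290222 had 3.18, 3.41 and 2.77 in libraries 2, 3 and 4 and passed in library 2 only. The site at 1289934 to 1289989 had 3.52 and 4.09 in libraries 2 and 3 and passed in both. The site at 1291353 to 1291399 had 3.65 in library 2 and 4.002 in library 4, where it passed. A peak at 1291533 to 1291574 was enriched in library 2 alone, at 3.38, and one at 1290474 to 1290498 was listed in library 3 alone, at 3.67 from 6 reads over 1. Library 1 listed none of these 5 sites. No TERT peak with recovered reads, in any library, had fewer than 3 immunoprecipitation reads.

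When only enriched peaks were merged, as for the whole series, the run held 11 regions, 4 enriched in all 4 libraries, 3 in 3, 1 in 2 and 3 in 1. Over the series 22.7% of such merged regions were enriched in at least 3 libraries and 12.6% in all 4; in the run this was 7 of 11 and 4 of 11. The window spans a chain of regions enriched in at least 3 libraries. High shares there follow from that choice, and nothing is read from the contrast. The rest of TERT held 3 regions, 1 of them in 2 libraries and 2 in a single library. The 4 regions enriched in all 4 libraries were 1289342 to 1289556, 1290255 to 1290320, 1291040 to 1291128 and 1291172 to 1291293, at means of 4.33, 4.46, 4.03 and 4.08 as above.

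One place outside the run recurred in all 4 libraries. It lay at 1262981 to 1263174, 26166 bases downstream of the run, and held 6 listed peaks. Its highest log2 folds were 2.25, 1.87, 4.09 and 3.54 in libraries 1 to 4, a mean of 2.64 ± 1.03 (SD, n = 3). Libraries 3 and 4, the pair counted as 1 sample, were high, and libraries 1 and 2 were low, and only library 3 passed both thresholds, from 8 reads over 1.

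The reads differ in kind between the libraries there. Library 2 had 42 immunoprecipitation reads over 12 input reads in 1 peak, a −log10 p of 4.39 at a fold below the threshold, and an interval from 0.92 to 2.93. Library 1 had 3 over 2, with an interval from -0.87 to 5.83 that spans 0. Next to it, 1263181 to 1263285 was listed in libraries 1 and 2 at 2.67 and 1.65 and did not pass in either.

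The remaining peaks outside the run recurred in no other library. Library 2 had 12 of these 25 single peaks, including the 3 below input, at -0.35, -0.52 and -0.94. Library 1 had 9 of them, between 1.67 and 3.25, with touching peaks counted separately. Among the 74 TERT peaks with recovered reads, the one with the most input reads, 1279568 to 1279671 in library 2, had 15 immunoprecipitation reads over 14 and a log2 fold of 0.16, with an interval from -0.99 to 1.32.

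Set among other runs of the series, the TERT run held more regions than most over a longer stretch, at a low fold. A run here is a chain of regions enriched in at least 3 libraries, at most 1000 bases apart on 1 strand. There were 64 runs of at least 4 regions, and 63 of them had enriched peaks in every library. The TERT run had 7 regions in 2326 bases, 3.01 per kb, against medians of 5 regions and 1347 bases over the 63, of which 12, TERT included, had at least 7. The median log2 fold of its enriched peaks was 4.75, 3.52, 4.13 and 4.19 in libraries 1 to 4, with a mean over samples of 4.14. The median of that mean over the 63 runs was 4.92, with a range from 3.83 to 7.04, and TERT ranked 59 of 63 from the highest.

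The 3 runs with the most similar fold in the 4 libraries were found by the root mean square difference of those medians. The closest, at chromosome 4, 897026 to 897708, minus strand, had 4.62, 3.76, 4.32 and 4.13, a difference of 0.17. The next, at chromosome 16, 512581 to 513271, plus strand, had 4.99, 3.87, 4.09 and 4.54, a difference of 0.28. The third, at chromosome 11, 410435 to 412149, minus strand, had 3.89, 3.47, 4.41 and 4.29, a difference of 0.46. Each of these 3 had 4 regions, at 5.86, 5.79 and 2.33 per kb. Likeness over 4 libraries of 3 samples is a description only.

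Which exon or intron of TERT each site falls in, and whether the run lies in repeated sequence or holds CAC motifs, was not examined, because no sequence or gene model of build hg19 was used here. No sequence is printed for the same reason.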

How the data were processed

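The members, the run and the lists were chosen with earlier results of these data known. Each eCLIP library has 1 deposited peak list, so peaks were called per library, from paired reads of 75 nt; the build, hg19, is per the submitters' processing notes. The aligner, the peak caller and the pairing of inputs with lists: not given in the sources used here. The log2 fold of immunoprecipitation over input and its −log10 p are the authors' values, deposited per peak; −log10 p stops at 400, and it is 0 where the fold is below input.

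Read numbers were worked back from each pair of values. The log2 fold was solved as a ratio of whole numbers times a depth constant of the library. The p was required to fit, to a relative 0.003, a two-sided binomial test, which is the limit of Fisher's exact test at large totals. Where neither number is under 5, a continuity-corrected chi-square test took its place. Peaks past a set −log10 p, higher than the 12.2 of the strongest TERT peak, were not tried. Of the other peaks above input, 90.4% to 97.0% gave unique numbers. The same held for 99.7% of 5306 peaks simulated with the same formulas and a known constant. That simulation shows how often the answer is unique. It could not yield a wrong unique pair, and it did not try the fit of the constant or an input of 0. The constants put the depth of input over immunoprecipitation at 3.18, 1.04, 2.12 and 1.46 in libraries 1 to 4. Total reads are unknown. Enriched peaks sharing at least 1 base on 1 strand were merged. A site takes the highest log2 fold of its peaks. The sites of the run listed in all 4 libraries are given singly, and every other site of the run is accounted for. The alternatives changed the thresholds, the overlap, the summary, the weighting of libraries and the libraries included. Python 3.11.15, pandas 2.3.3, numpy 2.4.6, scipy 1.17.1 and matplotlib 3.10.9 were used.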

Additional observations from a re-analysis of the deposited data

Results flagged for a closer look

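Among 23 quantities compared over the 4 libraries, each taken singly, 2 had a library far from the others by Dixon's 4-value criterion; chance alone would give about 1.15 if the libraries were independent. With libraries 3 and 4 as 1 sample only 3 values remain, to which the criterion was not applied, so neither is shown by sample. Library 2 covered 834 bases with its peaks outside the run, where the other 3 covered between 275 and 322. It also had 158 immunoprecipitation reads in those peaks, where the others had between 27 and 43. Both values concern the same peaks, and library 2 is the longest list and had the most immunoprecipitation reads over matched peaks of the series; whether its depth accounts for them was not tested. Inside the run no quantity of a library stood apart in this way.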

How the results depend on the processing

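The run kept 7 regions enriched in at least 3 of 4 libraries with the looser fold, the stricter p and the larger overlap, and 8 were found for at least 2 libraries. Asking for all 4 libraries left 4, because fewer regions meet the stricter demand. The difference of median log2 fold between run and rest fell to 0.41 when only peaks past the p threshold were kept, where library 1 had no peak outside the run and dropped out; 2 of the other 3 libraries were then at 0.044 and -0.069. With each library left out the number of regions lay between 7 and 8. That count asked for at least 2 of the 3 libraries left, a looser demand than 3 of 4, so it is not like for like. The difference of run and rest then lay between 1.16 and 1.48. The median log2 fold of the run lay between 3.72 and 4.26, the listed peaks between 9.25 and 11.25 and the enriched peaks between 7.25 and 8.75. Those 3 quantities stayed within 1.5 times, or within 1 SD, of 4.02, 10.2 and 8.17 under the other alternatives run. The widened window, the rest without neighbouring peaks and, for the listed peaks, the single weighting and each library left out were chosen after seeing the data. No paired analysis was possible because, for eCLIP against input by shared number, the inputs enter only inside each peak's fold; the difference of run and rest was taken within each library. Depth limits every fold: input was 1 read in 15 of the 41 peaks of the run.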
